A study of Mus musculus with 38 samples.

Results

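The genes described here are 9 mouse genes that carry iron into the cell, hold it, release it and sense it, namely Tfrc, Scara5, Slc11a2, Slc40a1, Fth1, Ftl1, Ireb2, Aco1 and Ncoa4. They were taken by gene symbol from a table of 21705 genes, and all 9 were found in it. The set was chosen by the Scara5 values of the MYC-2983 cell line, which were low with doxycycline and high without it. That comparison is therefore described for all 9 genes without a test.

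RNA sequencing covered 38 libraries in 10 groups. Cell lines were grown from kidney tumours of engineered mice: MYC-2983 (genotype MYC+), VM-3055 (Vhl-/- with MYC +) and VIM-3039 (Vhl-/- with MYC + and Ink-/-/Arf-/-). Each line gave 4 libraries maintained on dox, a drug that switches the MYC transgene on (Dox), and 4 after the drug was withdrawn (no Dox). The tissues were MYC tumours (3 libraries from 2 mice), VM tumours (3 mice) and VIM tumours (3 mice), all maintained on dox, and wild-type kidneys given vehicle (5 libraries). Per the study's methods, the Vhl-deleting Cre and the activator of the Tet-O-Myc transgene were driven by the kidney-specific cadherin promoter, and the Ink4a/Arf deletion was germline. The 4 libraries per condition show the spread within 1 line. No group without the MYC transgene was grown as cells, and vehicle-treated kidney differs from the tumours in transgene, drug and tissue make-up together.

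Cells take up transferrin-bound iron through the transferrin receptor (Tfrc) and ferritin through the scavenger receptor Scara5, and the divalent metal transporter Slc11a2 moves iron out of the endosome into the cytosol. Iron that is not used is packed into ferritin shells made of heavy (Fth1) and light (Ftl1) chains, Ncoa4 delivers ferritin to lysosomes for breakdown, and ferroportin (Slc40a1) is the known route of export. The iron regulatory proteins, encoded by Aco1 and Ireb2, bind stem-loops called iron responsive elements when iron is low, which stabilises the Tfrc message and holds back translation of ferritin and ferroportin. In the kidney, the proximal tubule reclaims iron from the filtrate.

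The stem-loops are shown first because they separate the uptake gene from the storage and export genes by where they sit in the message. The letters searched were a bulged C, then NNNNN, the loop CAGTGN and NNNNN, with the 5 bases on either side of the loop able to pair (G with T allowed). They were found in 4 of the 9 members among transcripts of the GENCODE vM1 annotation (build mm9), and in 1.23% of the 22611 genes searched. Capitals mark the loop. Tfrc held 4 of them, all in its 3′ untranslated region, where 0.548% of genes held a match; on the plus strand of chromosome 16 these were, in order, chr16:32631305-32631333, chr16:32631684-32631712, chr16:32631749-32631777 and chr16:32631796-32631824.
Tfrc site 1: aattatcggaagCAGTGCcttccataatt
Tfrc site 2: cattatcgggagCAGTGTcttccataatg
Tfrc site 3: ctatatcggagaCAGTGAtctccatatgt
Tfrc site 4: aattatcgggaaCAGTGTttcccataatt
Fth1, Ftl1 and Slc40a1 held 1 each, in the 5′ untranslated region, where 0.146% of genes held a match. They lie at chr19:10057222-10057250 on the plus strand (Fth1), chr7:52715149-52715177 on the minus strand (Ftl1) and chr1:45982310-45982338 on the minus strand (Slc40a1).
Fth1: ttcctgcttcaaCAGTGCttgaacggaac
Ftl1: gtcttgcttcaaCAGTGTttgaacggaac
Slc40a1: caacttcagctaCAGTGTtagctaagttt
These exact letters were not in the annotated transcripts of Scara5, Slc11a2, Ireb2, Aco1 or Ncoa4.

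Library depth, estimated from the smallest step between values, was 8.22 to 36.6 M reads, and 3 reads, taken as the detection floor, were worth 1.16 to 5.65 units. A unit is a gene-level estimate after the study's authors had brought every library to a common upper quartile of 1000. The engineered genes were checked in every group. With Dox, Vhl stood at 451 units in MYC-2983, 13.1 units in VM-3055 and 12.7 units in VIM-3039 cells, and it was 686 in normal kidney, 499 in MYC tumours, 53.6 in VM tumours and 252 in VIM tumours. Cdkn2a, the Ink4a/Arf gene, averaged at most 34.1 units in VIM-3039 cells and 3171 to 5162 in the other lines. It was 30.1 to 95.5 units in VIM tumours, 3392 to 4347 in VM tumours and at most 3.80 in kidney. MYC tumours were uneven, at 108, 2872 and 59.3 units of Cdkn2a. In cells the mouse Myc row went against the labels, being lower in libraries labelled Dox in every line (384 against 1364 units in VM-3055). The study reports immunoblots in which MYC protein depended on Dox in each of these lines. Among tissues Myc averaged 345, 557 and 404 units in MYC, VM and VIM tumours against 66.9 in normal kidney, without overlap. Whether reads of the transgene fall in this row was not tested. Nolc1 and Ncl, known MYC targets that were picked for this check after their values were seen, were higher in the libraries labelled Dox (Nolc1 7815 against 1597 units in VM-3055). Directions below are therefore given for libraries labelled Dox. None of the 6 kidney tubule epithelium markers was at or under the floor in all libraries of any group. By contrast 4 of 7 proximal tubule markers (Slc34a1, Slc5a2, Slc22a6 and Slc22a8) were at or under it in all libraries of every group of cells.

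**Figure D1:**
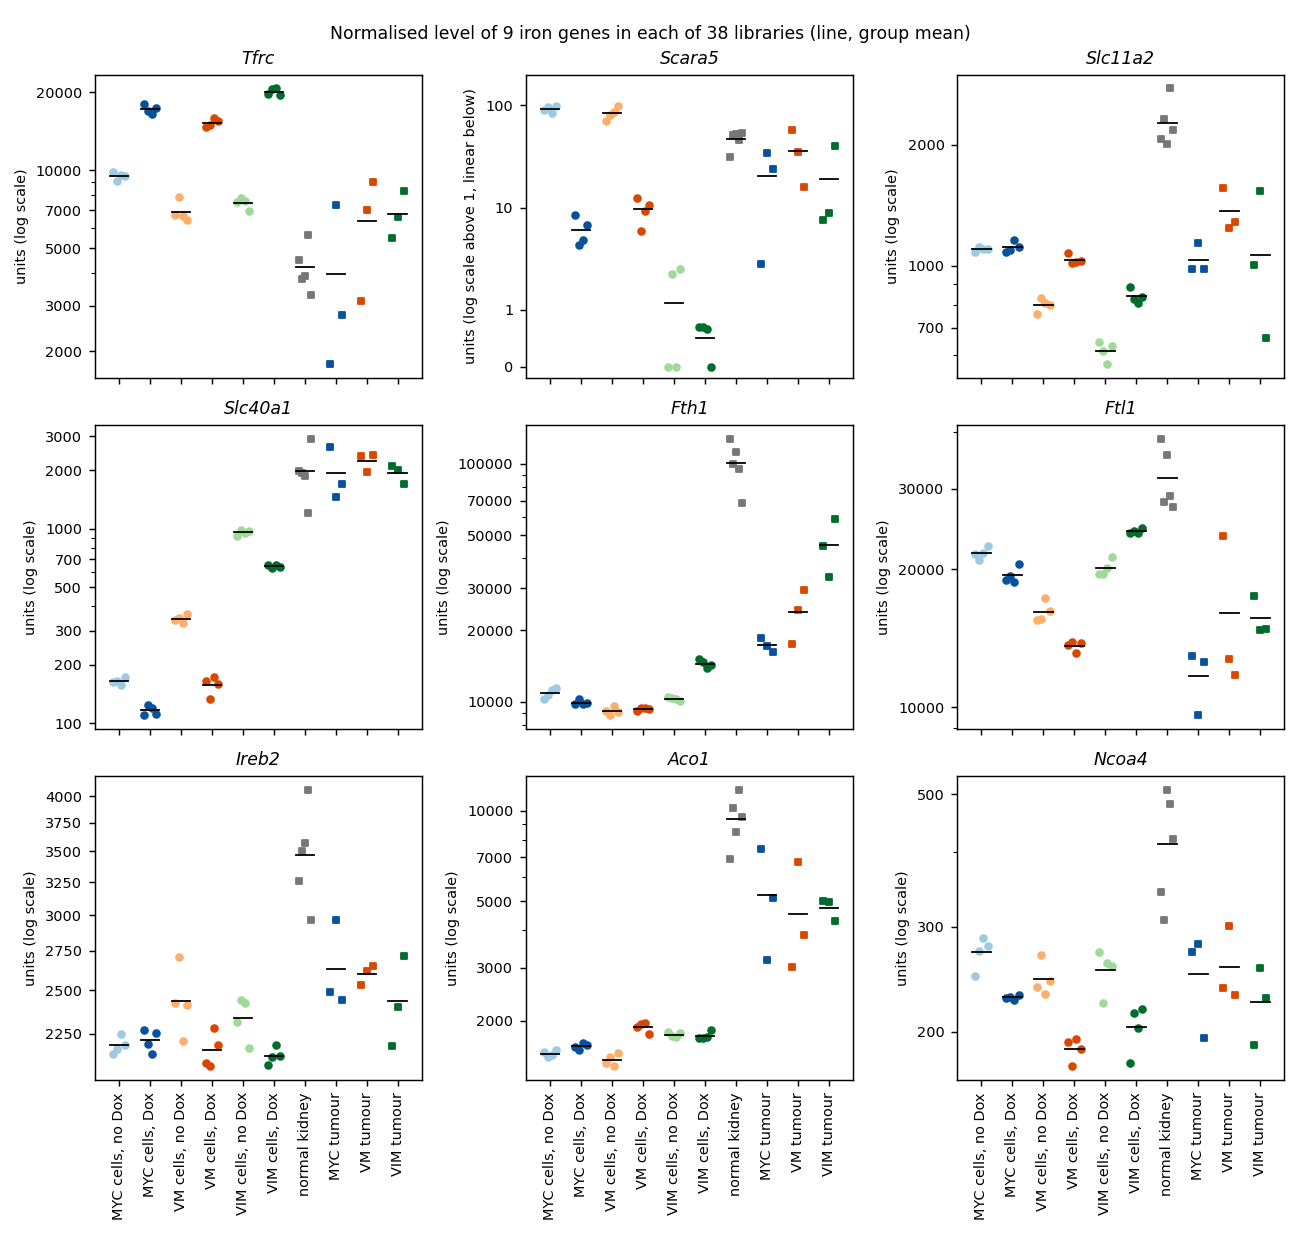
Normalised level in units (log axis, linear below 1 for Scara5) of each gene in each of 38 libraries, with 1 point per library and a line at the group mean. Tfrc was 14656 units or more in the 12 cell libraries labelled Dox and at most 9882 in the 12 without Dox, while Scara5 lay at 4.35 to 12.6 units with Dox and at or above 70.5 units without it in MYC and VM cells.

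Tfrc rose with Dox in VM-3055 and VIM-3039 cells, and in MYC-2983 cells its values with Dox were above those without it. In VM-3055 cells Tfrc was 14656, 14945, 15856 and 15504 units with Dox and 6729, 7891, 6634 and 6416 without. The groups did not overlap, with a log2 change of 1.14 ± 0.06 (SE, n = 4 and 4, adjusted p = 5.98e-12, limma). In VIM-3039 cells it was 19691, 20668, 20730 and 19495 units with Dox and 7511, 7790, 7598 and 6969 without, a log2 change of 1.43 ± 0.04 (adjusted p = 6.50e-19, limma). All 4 Dox libraries stood above every library of the other groups. In MYC-2983 cells it was 17986, 16941, 16489 and 17377 units with Dox and 9882, 9088, 9593 and 9471 without, a log2 change of 0.85, given without a test.

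Scara5 was low in every cell line with Dox and was close to undetected in VIM-3039 cells under either condition. In MYC-2983 cells, the comparison that chose the set, it was 8.39, 4.35, 4.88 and 6.81 units with Dox and 90.6, 96.1, 83.3 and 99.02 without, a 15.1-fold ratio of the means. VM-3055 cells were not used in that choice. There it fell from 70.5, 81.0, 86.8 and 98.7 units without Dox to 12.6, 5.96, 9.34 and 10.5 with it, a log2 change of -3.04 ± 0.21 (n = 4 and 4, adjusted p = 3.44e-10, limma) or 8.78-fold between the means. In VIM-3039 cells it was 0.694, 0.693, 0.656 and 0 units with Dox and 0, 2.23, 0 and 2.49 without, all at or under the floor of 3 reads, so that no fold is given and a change was not detectable at this depth. Summed markers of fibroblasts moved the same way, from 835 to 985 units without Dox to 156 to 212 with it in MYC-2983 cells, from 630 to 709 to 85.7 to 110 in VM-3055 and from 130 to 175 to 21.8 to 30.8 in VIM-3039. Of those 7 markers, Dcn, Lum, Fap and Thy1 were at or under the floor in VM-3055 cells under either condition. So were Lum, Pdgfra, Fap and Thy1 in VIM-3039 cells and Fap in MYC-2983 cells. Kidney tubule epithelium markers also summed lower with Dox (6078 to 6259 against 13350 to 13874 units in VM-3055). Of these 6 markers 0 were higher and 2 lower in VM-3055 cells at adjusted p under 0.05 (limma) and a log2 change above 1. Over all genes 5.92% and 18.9% were, and the markers had a median log2 change of -0.50. In VIM-3039 cells 1 was higher and 2 were lower (7.67% and 16.6% of all genes). The macrophage list also summed lower in VM-3055 cells (451 to 515 against 1075 to 1137 units), and in it Emr1, Cd163 and Lyz2 were at or under the floor in either condition. The part of these markers in the Scara5 result was not tested, and in bulk RNA fewer cells of a type and less RNA per cell cannot be told apart.

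Slc11a2 rose by less than the 2-fold limit in both Vhl-/- lines. In VM-3055 cells it was 1074, 1018, 1023 and 1027 units with Dox against 758, 830, 808 and 798 without (log2 change 0.37 ± 0.05, adjusted p = 1.08e-06, limma). In VIM-3039 cells it was 885, 825, 806 and 835 units against 646, 614, 567 and 629 (log2 change 0.45 ± 0.05, adjusted p = 1.87e-08, limma). In MYC-2983 cells the groups overlapped at 1082 to 1159 units with Dox and 1084 to 1115 without. Slc11a2 shares bases with Gm5475 on the opposite strand, and although the library kit marks strand, whether the counting used it is not given in the sources used here, so reads of these genes may not be told apart.

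Slc40a1, the exporter, fell with Dox in both tested lines, opposite in direction to Tfrc. In VM-3055 cells it was 166, 133, 172 and 159 units with Dox and 340, 350, 326 and 365 without (log2 change -1.13 ± 0.09, adjusted p = 1.47e-09, limma). It was 652, 632, 654 and 636 units with Dox in VIM-3039 cells and 921, 992, 955 and 971 without (log2 change -0.58 ± 0.04, adjusted p = 1.94e-11, limma). In MYC-2983 cells it was 110, 123, 120 and 112 units with Dox and 163, 166, 157 and 174 without, also without overlap. The VM-3055 value fell short of the 2-fold limit after rescaling by TMM (-0.90) or quantile normalisation (-0.86), with adjusted p values of 2.01e-08 and 9.39e-08 from limma.

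Both ferritin genes rose with Dox in VIM-3039 cells, and neither rose in VM-3055 cells on the deposited scale. In VIM-3039 cells Fth1 rose from 10492, 10389, 10262 and 10120 units to 15136, 14694, 13898 and 14222 (log2 change 0.49 ± 0.03, adjusted p = 8.40e-12, limma). Ftl1 rose there from 19559, 19489, 20149 and 21260 units to 24044, 24206, 24047 and 24633 (log2 change 0.27 ± 0.03, adjusted p = 3.88e-07, limma). In VM-3055 cells Fth1 overlapped between conditions at 9117 to 9398 units with Dox and 8803 to 9591 without (adjusted p = 0.614, limma), while after TMM rescaling its log2 change was 0.26 (adjusted p = 5.43e-05, limma), a rise. Ftl1 in this line was 13675, 13898, 13104 and 13841 units with Dox and 15489, 15576, 17277 and 16254 without, a log2 change of -0.24 ± 0.05 (adjusted p = 2.64e-04, limma) that shrank to -0.01 after TMM rescaling. In MYC-2983 cells Fth1 overlapped between conditions (9748 to 10321 units with Dox, 10245 to 11404 without) and Ftl1 was lower with Dox (18786 to 20594 against 20954 to 22530), a log2 change of -0.16 that turned to 0.27 after quantile normalisation. The row of Ftl2, an intron-less copy of Ftl1, did not exceed 5.35 units in any library, and how reads shared by ferritin genes and their copies were split is not known.

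Ncoa4, which routes ferritin to the lysosome, was lower with Dox by a small margin. It was 192, 175, 194 and 187 units against 237, 269, 231 and 243 in VM-3055 cells (log2 change -0.39 ± 0.08, adjusted p = 2.83e-04, limma) and 177, 215, 203 and 218 against 272, 223, 260 and 258 in VIM-3039 cells (-0.32 ± 0.08, adjusted p = 0.00177). Neither difference passed the adjusted p after TMM rescaling (0.0783 and 0.0922, limma). In MYC-2983 cells Ncoa4 was 226 to 230 units with Dox and 248 to 287 without.

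Of the iron regulatory proteins, Aco1 rose in VM-3055 cells, from 1450, 1508, 1415 and 1556 units to 1904, 1946, 1966 and 1810 (log2 change 0.36 ± 0.05, adjusted p = 1.07e-06, limma). In VIM-3039 cells its 1752 to 1853 units with Dox overlapped the 1763 to 1828 without, and after TMM rescaling the log2 change of -0.01 became 0.15 (adjusted p = 5.66e-04, limma). In MYC-2983 cells it was 1602 to 1690 units with Dox and 1511 to 1591 without. Ireb2 overlapped between conditions in every line, at 2083 to 2281 units with Dox and 2209 to 2710 without in VM-3055 cells. Its log2 changes of -0.17 ± 0.06 and -0.13 ± 0.04 in VM-3055 and VIM-3039 cells passed the adjusted p (0.0100 and 0.0030, limma), but after TMM rescaling they were 0.06 and 0.03.

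Counted at adjusted p under 0.05 with a log2 change above 1, 3 of the 9 genes were called in VM-3055 cells, where 24.8% of the 14319 genes tested were: 1 rose (5.92% of all genes) and 2 fell (18.9%). In VIM-3039 cells 1 of 9 was called, Tfrc, where 24.3% of 13998 genes were, 7.67% rising and 16.6% falling. At adjusted p alone the counts were 8 of 9 (73.8% of all genes) and 7 of 9 (75.3%), shares that lie near the background. In MYC-2983 cells 19.5% of all genes were called. The members had a median log2 change of -0.17 (VM-3055) and -0.01 (VIM-3039), beside -0.26 and -0.15 over all genes tested. The scaling bears on these shares: among genes of at least 50 units the median log2 change with Dox was -0.17 in VM-3055 cells as deposited and 0.07 after TMM rescaling (-0.09 and 0.07 in VIM-3039, -0.06 and 0.08 in MYC-2983). Calls in VM-3055 cells split into 847 higher and 2707 lower as deposited, 1362 and 1999 after TMM and 1503 and 1593 after quantile normalisation (1074 and 2322, 1442 and 1874, 1526 and 1572 in VIM-3039). Tfrc and Scara5 kept their direction and call in VM-3055 cells under each of the 16 alternatives.

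**Figure D2:**
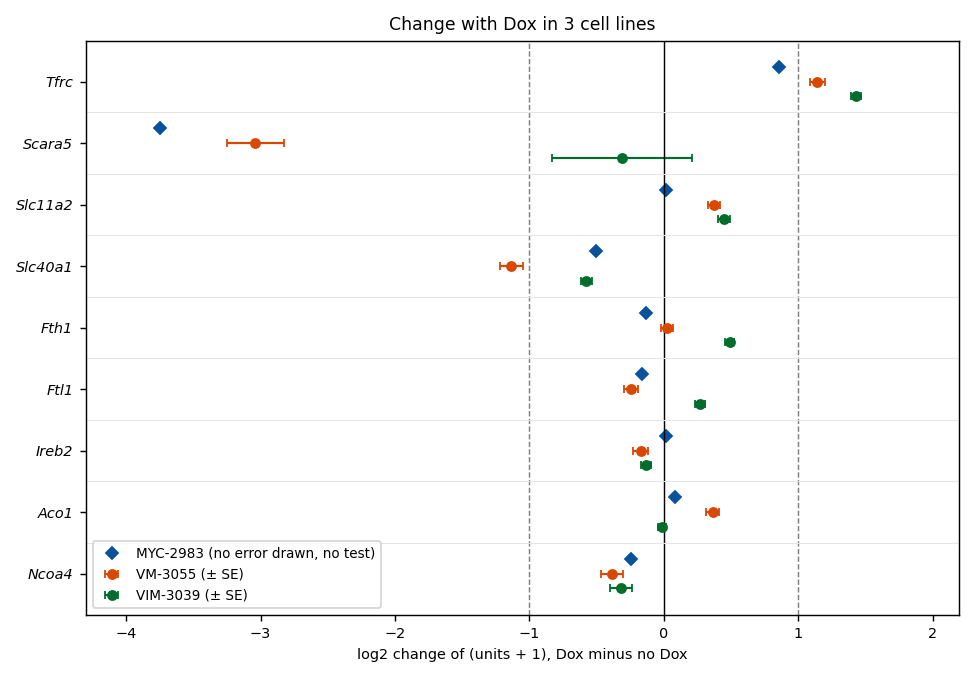
Log2 change of (units + 1) with Dox for each gene in 3 cell lines, with SE for VM-3055 and VIM-3039 (4 against 4 libraries), no error for MYC-2983, and dashed lines at the 2-fold limit. Tfrc lies to the right and Slc40a1 to the left of 0 in every line, while Fth1 lies at 0.49 in VIM-3039 and 0.03 in VM-3055.

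The next comparison asked where the line lacking Ink4a/Arf responded differently from the line that kept it, as the difference between their log2 changes (VIM-3039 minus VM-3055). At adjusted p alone 6 of 9 genes differed (33.3% of all genes) and 1, Scara5, also by more than 2-fold (6.05%). The difference was 0.46 ± 0.05 for Fth1 (adjusted p = 3.59e-07), 0.51 ± 0.06 for Ftl1 (6.79e-07), 0.56 ± 0.09 for Slc40a1 (5.36e-05) and -0.38 ± 0.05 for Aco1 (9.44e-06), all from limma. For Tfrc it was 0.29 ± 0.07 (adjusted p = 0.00426, limma), which did not pass after TMM rescaling (adjusted p = 0.0864) or quantile normalisation (adjusted p = 0.808, limma). The Scara5 difference of 2.73 ± 0.53 (adjusted p = 3.40e-04, limma) sets a fall in VM-3055 beside a line with no detectable level, and it lost its call at a pseudocount of 0.1 (adjusted p = 0.0832). For Slc11a2, Ireb2 and Ncoa4 the differences of 0.07, 0.04 and 0.07 did not pass.

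Between the lines themselves, Slc40a1 showed the clearest gap among genes with a measurable level in both. It was 4.09-fold higher in VIM-3039 than in VM-3055 cells with Dox (log2 difference 2.03 ± 0.07, adjusted p = 4.96e-13, limma) and 2.78-fold higher without Dox (1.47 ± 0.05, adjusted p = 4.07e-13). Scara5 was at least 3.96-fold lower in VIM-3039 cells with Dox and at least 25.2-fold lower without it, taking 3 reads per library as the floor. With Dox its call fell away at a pseudocount of 10, where the log2 difference was -0.89. Both ferritin genes were higher in VIM-3039 cells with Dox, Fth1 by 1.56-fold and Ftl1 by 1.78-fold (adjusted p = 3.36e-11 and 7.48e-13, limma). With Dox 2 of 9 genes were called (19.1% of all genes) and without Dox again 2 of 9 (21.7%). These are single lines, so the genotype and the line cannot be told apart.

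The other iron genes were read from lists of the pathway. Among 14 tested genes of iron transport at the endosome and plasma membrane, none rose and 5 fell with Dox in VM-3055 cells. Of 11 tested in VIM-3039 cells 1 was called higher and 5 lower, but 1 of the 5, Lcn2, was at or under the floor of 3 reads in every library of that line, so its change was not detectable at this depth. The shares called over all genes were those given above (24.8% and 24.3%). Lrp1, a receptor for haem-haemopexin, fell from 188 units by 10.5-fold in VM-3055 cells (log2 change -3.36, adjusted p = 9.93e-10, limma) and from 347 to 87.4 units in VIM-3039 (-1.97). Lcn2, which binds iron-loaded siderophores, fell from 367 to 54.1 units in VM-3055 cells (-2.74), and Cubn, a proximal tubule receptor that takes up transferrin, fell from 131 to 58.3 units in VIM-3039 cells (-1.19, and -0.76 after quantile normalisation, short of the limit). Cubn was called lower in VM-3055 cells as well. Steap3, the ferrireductase that works beside Slc11a2 in the endosome, rose from 26.5 to 132 units in VIM-3039 cells (2.29, adjusted p = 1.32e-11).

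In the export and systemic control list 3 of 7 tested genes fell in VM-3055 and 2 of 6 in VIM-3039 cells. Over all genes 18.9% and 16.6% were called lower. Ceruloplasmin (Cp), the oxidase that works with ferroportin, fell from 5712 to 1680 units (log2 change -1.76, adjusted p = 1.24e-15, limma) and from 1305 to 601 units (-1.12, and -0.96 after TMM rescaling, short of the limit). Hfe fell from 55.1 to 24.2 units in VM-3055 cells (-1.16), a call lost at a pseudocount of 10 and after TMM rescaling (both -0.93) and after quantile normalisation (-0.41). Epas1, which encodes HIF-2α and whose message also carries an iron responsive element, fell from 80.1 to 14.6 units in VM-3055 and from 81.4 to 14.8 units in VIM-3039 cells, and was the 1 gene called of 6 in its list in either line. The shares of all genes called in either direction were 24.8% and 24.3%.

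Few iron-sulphur and haem genes passed the 2-fold limit with Dox. In the mitochondrial list of 20 tested genes, 11 were higher and 4 lower at adjusted p alone in VM-3055 cells and 14 and 3 in VIM-3039 (limma), with median log2 changes of 0.19 and 0.29 beside -0.26 and -0.15 over all genes. Over all genes 73.8% and 75.3% passed the adjusted p alone in either direction, and 24.8% and 24.3% were called. Past the 2-fold limit, Lyrm4 rose in VM-3055 cells (97.2 to 215 units, 1.13) and Glrx5 in VIM-3039 cells (732 to 1475 units, 1.01, and 0.97 without Dox library 1), with none falling. No cytosolic iron-sulphur gene (8 tested) and no haem synthesis gene (9 tested) was called in either line, and of 8 haem breakdown and transport genes Blvrb alone was called, falling from 76.6 to 35.7 units in VIM-3039 cells (-1.10). That call was lost without Dox library 4 (-0.98), at a pseudocount of 10 (-0.93), after TMM rescaling (-0.94) and after quantile normalisation (-0.56). Between lines, Hmox1, the inducible haem oxygenase, was 2659 units in VIM-3039 and 782 in VM-3055 cells with Dox (log2 difference 1.77, adjusted p = 2.68e-15, limma) and 2263 against 1074 units without Dox. In the same comparisons Fdxr was 212 against 61.4 units with Dox and 106 against 30.6 without, and Ciapin1 (1677 against 806 units) and Alad (788 against 339) were higher with Dox. Lcn2 and the hepcidin gene Hamp2 lay at or under the floor in the VIM-3039 line. Against VM-3055, Lcn2 was at least 22.3-fold lower with Dox and at least 110-fold lower without, and Hamp2 at least 21.04-fold and 25.8-fold lower. Hamp2 passed the filter for testing only through the VM-3055 libraries, where it was high, so its values are descriptions. Steap3 was higher in VIM-3039 cells with Dox (132 against 59.5 units) and lower without it (26.5 against 58.8, short of the limit at a pseudocount of 10), Cp was lower in both conditions (log2 difference -1.48 with Dox and -2.13 without), and Lrp1 was higher with Dox (2.29).

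Tumours were then compared with normal kidney. Both ferritin genes were lower in all 3 tumour types, and Tfrc, Slc40a1 and Scara5 were not called in any. Fth1 was 126953, 99305, 111774, 94585 and 68426 units in normal kidney, 18484, 17157 and 16223 in MYC tumours (the last 2 from mouse 2983), 17514, 24373 and 29480 in VM tumours and 45085, 33303 and 58664 in VIM tumours. No tumour reached the lowest kidney. The log2 differences were -2.48 ± 0.37 for MYC, -2.08 ± 0.32 for VM and -1.14 ± 0.32 for VIM tumours (adjusted p = 1.85e-04, 1.60e-04 and 0.0104, limma). The VIM call was lost without VIM tumour 2 (-0.93), without the kidneys titled B6 (-0.96) and after quantile normalisation (-0.67).

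Ftl1 was 38526, 28115, 35479, 28951 and 27422 units in kidney, 12905, 9610 and 12568 in MYC, 23660, 12743 and 11742 in VM and 17497, 14722 and 14783 in VIM tumours. All tumours again lay under all kidneys, with log2 differences of -1.40 ± 0.30, -1.04 ± 0.26 and -1.01 ± 0.26 (adjusted p = 0.00218, 0.00450 and 0.00578, limma). The VM and VIM values sit at the 2-fold limit and dropped under it without VM tumour 2 or 3, VIM tumour 2 or 3, kidney 1 or 3, or the kidneys titled B6 (-0.85 to -0.999). After quantile normalisation no Ftl1 difference was called (-0.39, -0.23 and -0.37).

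Slc11a2 was 2073, 2320, 2008, 2769 and 2183 units in kidney against 979, 1139 and 982 in MYC tumours (log2 difference -1.15 ± 0.26, adjusted p = 0.00317, limma) and 1006, 1531 and 659 in VIM tumours (-1.17 ± 0.22, adjusted p = 8.47e-04), the latter falling short without VIM tumour 3 (-0.86). In VM tumours it was 1566, 1240 and 1289 units (-0.73, adjusted p = 0.0157). Aco1 was 6898, 10210, 8475, 11734 and 9502 units in kidney and 3015, 6723 and 3861 in VM tumours (-1.11 ± 0.27, adjusted p = 0.00447), a call lost without VM tumour 1, without the kidneys titled KT and after quantile normalisation (-0.86, -0.84 and -0.57). It stood at 4981, 4955 and 4296 units in VIM tumours (-0.96, adjusted p = 0.0109) and overlapped kidney in MYC tumours at 7434, 3193 and 5107 (-0.75, adjusted p = 0.0722). The MYC value was called without MYC tumour 1 (-1.19), and the VIM value after TMM rescaling (-1.04), without the kidneys titled B6 (-1.14) and without kidney 1 (-1.07). Ireb2 (kidney 2965 to 4065 units, tumours 2183 to 2968) and Ncoa4 (kidney 308 to 509, tumours 190 to 301) stayed within the 2-fold limit. Ireb2 fell by 0.41 in VM and 0.51 in VIM tumours on the log2 scale (adjusted p = 0.0259 and 0.00803, limma) and overlapped kidney in MYC tumours (adjusted p = 0.0503), and Ncoa4 fell by 0.68, 0.67 and 0.86 in MYC, VM and VIM tumours (adjusted p = 0.0445, 0.0220 and 0.00560).

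Tfrc was 4510, 3797, 3893, 5619 and 3306 units in kidney, 1778, 7370 and 2753 in MYC tumours, 3133, 7011 and 8982 in VM tumours and 5456, 6585 and 8305 in VIM tumours. The spread within MYC and VM tumours was wide, the 2 libraries of mouse 2983 alone standing at 7370 and 2753, and no difference passed (adjusted p = 0.299, 0.277 and 0.126, limma). The VIM difference of 0.69 passed the adjusted p (0.0204, limma) with only VIM tumours and kidney in the fit, and the VM difference came to 0.93 (adjusted p = 0.0336, limma) without VM tumour 1, both within the 2-fold limit. Slc40a1 was 1202 to 2904 units in kidney and 1463 to 2645 over all tumours (log2 differences 0.10, 0.22 and 0.02). Scara5 was 31.1 to 53.1 units in kidney and ranged from 2.80 to 57.3 in tumours, with adjusted p values of 0.0519, 0.593 and 0.0769 (limma). The MYC difference of -2.14 was called after TMM rescaling (adjusted p = 0.0416), with a mean filter of 10 units (0.0430), with only MYC tumours and kidney in the fit (0.0353) and without mouse 2983 (-3.62, adjusted p = 0.0112, all limma), and it was -0.66 without MYC tumour 1. The VIM difference of -1.63 was called with only VIM tumours and kidney in the fit (adjusted p = 0.0285, limma) and without VIM tumour 3 (-2.36, adjusted p = 0.0198). Leaving out mouse 2983 or MYC tumour 1 left 1 MYC tumour animal, which was assumed to vary like the other groups.

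In each tumour type 3 of 9 genes were called, all lower. Over all 17116 genes tested 33% were called in MYC tumours (16.8% higher, 16.2% lower), 37.7% in VM tumours (16.5% and 21.2%) and 37.3% in VIM tumours (18% and 19.3%). The median log2 difference of the members was -0.75, -0.67 and -0.96, beside 0.08, -0.03 and 0 over all genes. The 3 comparisons share their kidney samples and are not independent. Proximal tubule markers summed to 208261 to 240707 units in kidney and 1823 to 10812 in tumours, and those of the loop, distal tubule and collecting duct to 73005 to 162230 against 4.93 to 6446, while the macrophage list was higher in tumours (3798 to 18154 against 1133 to 2153) and the erythroid list stood at 2940 to 9204 in kidney and 443 to 6001 in tumours. Their part in the ferritin, Slc11a2 and Aco1 differences was not tested. The MYC tumour differences rest on 2 mice, the libraries of mouse 2983 having been averaged on the log2 scale. The wild-type kidneys carry titles of 2 kinds (B6, 2 libraries, and KT, 3 libraries), whose meaning the labels do not give.

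**Figure D3:**
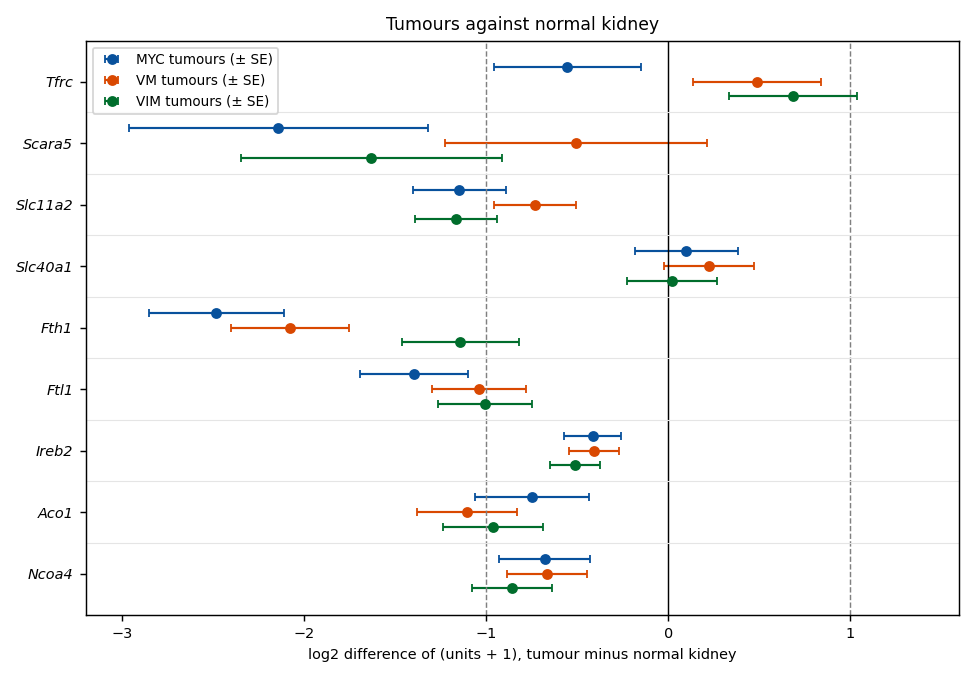
Log2 difference of (units + 1) ± SE for each gene in MYC (2 mice), VM (3) and VIM (3) tumours against 5 normal kidneys, with dashed lines at the 2-fold limit. Fth1 and Ftl1 lie left of -1 in all tumour types and Slc40a1 lies between 0.02 and 0.22.

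Between tumour types none of the 9 genes was called (2.79% of all genes in VIM against VM, 1.97% in VM against MYC and 3.91% in VIM against MYC tumours). At an unadjusted p under 0.05 (limma) 1, 1 and 2 of the 9 genes differed, beside 17.6%, 16.6% and 24.3% of all genes. Fth1 was higher in VIM tumours than in VM and MYC tumours by log2 differences of 0.94 ± 0.36 (adjusted p = 0.199, limma) and 1.34 ± 0.40 (adjusted p = 0.0735), and its values did not overlap in either pair. For Tfrc, the VM and VIM tumours were above MYC tumours by 1.04 ± 0.44 and 1.24 ± 0.44 (adjusted p = 0.254 and 0.113), with overlapping values, and these came to 0.37 and 0.57 without MYC tumour 1. With the libraries of mouse 2983 entered separately, or without VIM tumour 2, the Fth1 difference between VIM and MYC tumours reached adjusted p values of 0.0278 in each case (limma).

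The wider iron pathway in tumours held genes called in either direction. The list counts that follow are set beside the shares of all genes called in MYC, VM and VIM tumours, which were 16.8%, 16.5% and 18% higher and 16.2%, 21.2% and 19.3% lower. In the transport list 6, 6 and 7 of 16 tested genes were higher in MYC, VM and VIM tumours and 3, 4 and 4 lower, with median log2 differences of 0.91, 0.53 and 1.21 beside 0.08, -0.03 and 0 over all genes. Steap4, a metal reductase, was 691 units in MYC and 476 in VM tumours against 24.0 in kidney, Steap1 was 575 in VM and 1560 in VIM tumours against 64.5, Cybrd1 was 94.0 in MYC tumours against 15.4, and Lcn2 was 755 in VIM tumours against 13.2. Cubn fell from 9291 units to 234, 137 and 199 and Lrp2, its partner in the proximal tubule, from 39526 units to 3219 in MYC and 2545 in VIM tumours, and the zinc and iron carrier Slc39a8 from 1208 to 67.0 in VM tumours. Values of these genes are given only for some tumour types. Steap1, Steap4 and Cybrd1 were called higher in all 3 types, and Lrp2 and Slc39a8 were called lower in all 3. Lcn2 was called higher in VM as well as VIM tumours. Cubn and Lrp2 are themselves in the proximal tubule marker list. Steap1 also differed between tumour types (VIM against VM 1.53, adjusted p = 0.0497; VIM against MYC 2.44, adjusted p = 0.0141, limma), as did Slc39a14 (7330 units in VIM and 2495 in VM tumours, adjusted p = 0.00922). These 3 differences lost their call with only the groups compared in the fit (adjusted p = 0.157, 0.137 and 0.122, limma).

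In the export and systemic list 3, 3 and 4 of 11 tested genes were higher and 1, Heph in VIM tumours (20.1 against 300 units), was lower. Cp was 12119 units in MYC and 4011 in VIM tumours against 667 in kidney, Bmp6 was 2445 in VM tumours against 663, and Hp was 222, 95.7 and 88.2 units against 3.40. Cp and Bmp6 were called higher in all 3 types, also where no value is given here. Epas1 was lower in all 3 types (293, 170 and 247 against 2294 units). Of the 20 mitochondrial iron-sulphur genes tested, 1, 0 and 3 were higher and 5, 2 and 1 lower. Iscu, the assembly scaffold, was 455, 538 and 718 units against 2236, Fdx1 was 601 and 882 units in MYC and VM tumours against 1932, Fdxr was 374 and 547 units in MYC and VIM tumours against 191, and Fdx1l was 941 in VIM tumours against 400.

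Of 9 haem synthesis genes 4, 3 and 2 were lower and none higher, with median log2 differences of -1.22, -0.89 and -0.56. Uros stood at 143, 222 and 180 units against 720 and Cpox at 1040, 528 and 832 against 2972. Haem breakdown and transport held 4, 4 and 3 lower of 8, led by the exporter Abcg2 (2519, 3224 and 4701 units against 13303), Slc46a1 (264 and 280 units in MYC and VIM tumours against 880) and Slc48a1 (1362 units in VM tumours against 3486), with Hmox1 higher in VM tumours (1185 against 569). Slc46a1 and Slc48a1 were called lower in all 3 tumour types. In MYC tumours the calls of Cybrd1, Hp, Epas1, Cpox and Slc46a1 were lost without mouse 2983, which left 1 animal, and that of Fdxr without MYC tumour 1 (0.77), without kidney 1 or 4, with the libraries of mouse 2983 entered separately and after TMM or quantile scaling (0.96 to 0.99). In VM tumours those of Fdx1 and Hmox1 were lost without VM tumour 2 (-0.86 and 0.88), that of Hmox1 also without kidney 5 (0.86). Without the kidneys titled KT the calls of Epas1 and Slc46a1 in MYC, Hmox1 in VM, and Heph and Slc46a1 in VIM tumours were lost, and without those titled B6 that of Fdx1 in VM tumours. No cytosolic iron-sulphur gene was called against kidney. Between tumour types the genes called in these lists were Ciapin1 (1730 units in VIM, 819 in VM and 604 in MYC tumours) and Nubp1 (1246 in VIM, 534 in VM), Glrx5 (2157 in VM and 2585 in VIM against 1032 in MYC), Bola3 (1268 in VIM, 379 in MYC), Blvra (2041 in VIM, 515 in MYC), Hmox1 (1185 in VM, 454 in MYC), Neo1 (696 in VIM, 1856 in MYC) and Fdx1l (VIM against MYC), beside Steap1 and Slc39a14 above. With only the groups compared in the fit, which leaves 5 or 6 animals, none of these differences was called (adjusted p = 0.122 to 0.246, limma). Of the 8 genes whose messages carry a textbook iron responsive element, 5, 3 and 4 were lower than in kidney and none was higher.

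Ratios within a library do not depend on its scaling by a single factor. They are given as descriptions, since gene length is not corrected. Fth1 over Ftl1 was 0.47 to 0.72 in all 24 cell libraries, 2.50 to 3.53 in kidney, 1.29 to 1.79 in MYC, 0.74 to 2.51 in VM and 2.26 to 3.97 in VIM tumours, so VM and VIM tumours overlapped kidney and no cell library did. Tfrc over Slc40a1 rose with Dox in each line, from a mean of 57.7 to 148 in MYC-2983, 20.1 to 97.7 in VM-3055 and 7.79 to 31.3 in VIM-3039 cells, and it was 2.42 in kidney and 2.44 to 3.57 in tumours. Ireb2 over Aco1 was 1.07 to 1.80 over the cell libraries and 0.31 to 0.93 over the tissues.

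**Figure D4:**
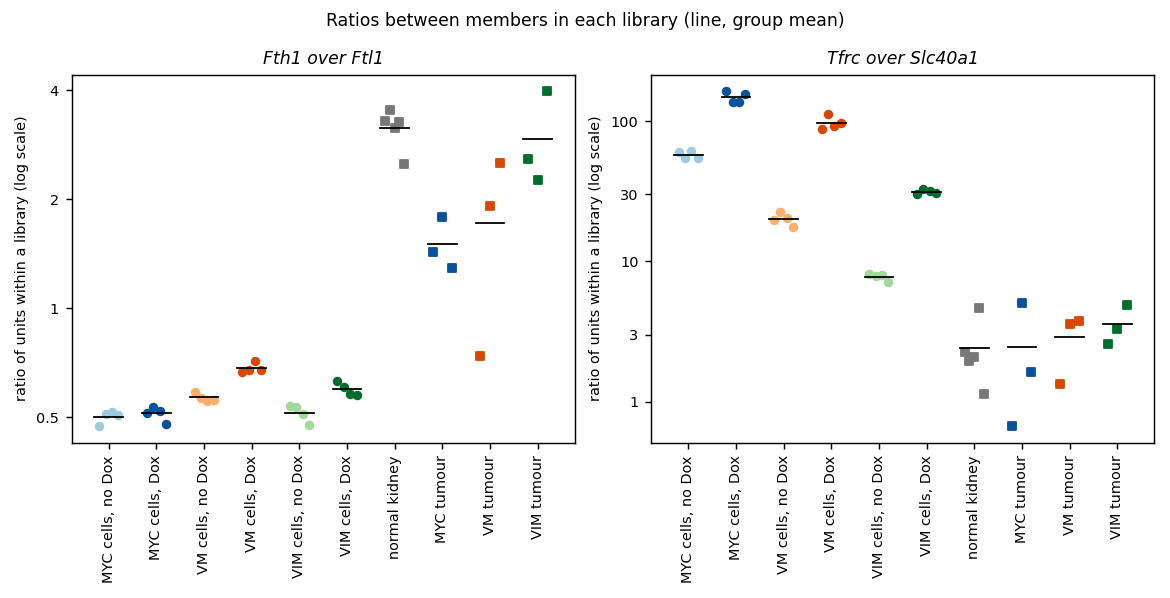
Ratio of Fth1 to Ftl1 (left) and of Tfrc to Slc40a1 (right) in each library on log axes, with 1 point per library and a line at the group mean. Fth1 over Ftl1 is under 0.72 in every cell library and reaches 2.50 to 3.53 in kidney, and Tfrc over Slc40a1 is higher with Dox in each line.

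Ordered by mean level, Tfrc ran from VIM-3039 (20146 units), MYC-2983 (17198) and VM-3055 (15240) with Dox, which did not overlap each other, through MYC-2983 (9509), VIM-3039 (7467) and VM-3055 (6917) without Dox to VIM tumours (6782), VM tumours (6375), kidney (4225) and MYC tumours (3967), and from VIM-3039 without Dox downwards each group overlapped its neighbour. Scara5 ran from MYC-2983 and VM-3055 without Dox (92.2 and 84.3, overlapping) through kidney (46.6), VM (36.1), MYC (20.3) and VIM tumours (18.9) to VM-3055 and MYC-2983 with Dox (9.60 and 6.11) and VIM-3039 without and with Dox (1.18 and 0.511). Slc40a1 was 1937 to 2238 units in the tissue groups and at most 960 in the lines. By Pearson r of log2(group mean + 1) over the 10 groups, the genes of 13354 searched whose pattern was most like Tfrc were Mbd3 (r = 0.980), Usp39 (0.964) and Lig3 (0.954), and for Scara5 Rab33b (0.929), 5430435G22Rik (0.923) and Nhlrc3 (0.923). These 10 points share lines, mice and batches of cells and tissue, so r is a description with no p.

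The bases before the gene start are shown for Tfrc and Scara5, the members with the largest rise and the largest fall with Dox in VM-3055 cells. They were searched on either strand for CACGTG, the E-box that MYC binds, and for ACGTG, the core of sites bound by hypoxia-inducible factors, which every CACGTG also holds. Among windows of 250 bases before 22220 protein-coding genes (mm9, GENCODE vM1), 6.51% held CACGTG and 17.5% held ACGTG. No member held CACGTG there, and Tfrc and Ncoa4 held 1 ACGTG each, shown for Tfrc in capitals. The Tfrc window is chr16:32608756-32609005 and the Scara5 window chr14:66284990-66285239, both on the plus strand.
Tfrc: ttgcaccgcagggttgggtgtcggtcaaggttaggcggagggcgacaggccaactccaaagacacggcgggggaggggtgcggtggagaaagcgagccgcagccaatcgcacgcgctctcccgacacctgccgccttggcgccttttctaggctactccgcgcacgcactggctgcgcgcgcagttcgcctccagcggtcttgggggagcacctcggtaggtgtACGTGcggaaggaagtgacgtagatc
Scara5: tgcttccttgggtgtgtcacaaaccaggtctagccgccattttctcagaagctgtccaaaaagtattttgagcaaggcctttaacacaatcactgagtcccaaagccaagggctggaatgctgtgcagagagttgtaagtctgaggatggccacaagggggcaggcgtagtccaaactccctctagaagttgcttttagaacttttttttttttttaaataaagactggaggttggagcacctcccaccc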

How the data were processed

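RNA was sequenced in 38 libraries of tumour-derived cells, tumours and kidney. The deposited signal values were made by the authors with RSEM, after Picard 1.64 and SAMtools per the processing notes (build mm9), and were scaled by the authors to an upper quartile of 1000. Values of 94.4% to 95.9% of low entries per library were whole multiples of 1 read within 0.02 reads, which gave the depth. The table was not raw counts, so the test was that of limma 3.58.1 (R 4.3.3) on log2(units + 1) (moderated variance with trend, Benjamini-Hochberg adjustment), in place of the count test first planned. The count alternative was limma voom on reads derived from the steps. Genes above 0 in at least 4 cell libraries or 2 animals were tested, and a call needed an adjusted p under 0.05 and a log2 change above 1. The 4 tissue groups shared 1 fit over 13 animals, the libraries of mouse 2983 being averaged. Each kidney library was counted as 1 animal, although the labels name no mouse for the kidneys. Nothing but replicate labels says that libraries of a line were separate cultures, so p-values may measure technical spread.

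The 9 genes and the further lists were chosen with earlier results of these data known. Further iron genes were named where called, not overlapping and at least 50 units in the higher group, up to 2 rises and 2 falls per list and comparison, with others named in counts. Tfr2, Flvcr1 and Flvcr2 were not analysed here, and 1 listed gene is counted but not reported by name. The fits of VM-3055 Dox, of the difference between lines in the Dox change and of VM tumours against kidney were tested on simulated data. Alternatives were pseudocounts of 0.1 and 10, a mean filter of 10 units, no filter, TMM and quantile scaling, voom, a replicate block, subsets of groups or kidneys, and each library left out. Python 3.11.15, numpy 2.4.6, pandas 2.3.3 and matplotlib 3.10.9 were used for the other steps. Fold changes on the log2(units + 1) scale understate the change of low genes, and floors cover counting error only.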

Additional observations from a re-analysis of the deposited data

Results flagged for a closer look

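For 6 genes, results of the Dox comparisons differed between VIM-3039 and VM-3055 cells by the test of the difference itself (limma, adjusted over all genes). Over all genes 33.3% differed by this test. The log2 change with Dox in VIM-3039 minus that in VM-3055 was 2.73 for Scara5, 0.56 for Slc40a1, 0.51 for Ftl1, 0.46 for Fth1, 0.29 for Tfrc and -0.38 for Aco1. For Slc40a1 the sign means a smaller fall in VIM-3039 (-0.58 against -1.13). For Ftl1 it sets a rise beside a fall on the deposited scale (0.27 against -0.24), and after TMM rescaling the VM-3055 change was -0.01. Scara5 was at or under the floor of 3 reads in every VIM-3039 library. The Tfrc difference did not pass after TMM rescaling or quantile normalisation (adjusted p = 0.0864 and 0.808, limma).

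Among the 63 sets of 4 or 5 libraries examined, 3 held a library that stood apart from the rest, where chance flags about 1 in 20. Scara5 was 0 units in 1 VIM-3039 library with Dox and 0.656 to 0.694 in the other 3, all under the floor of 3 reads. Slc11a2 was 1074 units in 1 VM-3055 library with Dox and 1018 to 1027 in the others. Aco1 was 1853 units in 1 VIM-3039 library with Dox and 1752 to 1764 in the others.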

How the results depend on the processing

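For the 9 genes 1327 values under alternatives were compared, without MYC-2983 cells and with only Fth1 and Tfrc between tumour types. Of these, 1269 kept their direction and stayed called or uncalled as before, 24 lost the call, 12 gained one and 22 changed sign. The other named iron genes were picked as called in the same comparison. Their values could therefore lose a call but not gain one, and they started beyond the 2-fold limit, far from a change of sign. Of 1357 such values 94 lost the call and 0 changed sign, in 30 of 85 results (every one between tumour types, and others, among them those of Hfe, Blvrb, Cp, Cubn, Glrx5, Steap3, Cpox, Cybrd1, Epas1, Fdxr, Hp, Slc46a1, Fdx1, Hmox1 and Heph). The cause was not tested. TMM rescaling turned the Dox change of Ireb2 to 0.0645 (VM-3055) and 0.0276 (VIM-3039) and of Aco1 to 0.15 (VIM-3039). It turned the difference between lines to -0.0534 for Slc11a2, -0.0871 for Ireb2 and -0.0581 for Ncoa4 (-0.0626 by quantile normalisation), and Slc40a1 against kidney to -0.0215 in MYC and -0.0579 in VIM tumours. Quantile normalisation gave 0.0235 for Ireb2 between lines with Dox, -0.0016 for Ftl1 between lines without Dox and 0.0278 for Scara5 in VM tumours, and it left 1 of 9 genes called in VM and in VIM tumours in place of 3. Entering the libraries of mouse 2983 separately gave -0.0256 for Slc40a1 in MYC tumours, and calls over all genes of 510 in place of 337 (VM against MYC tumours) and 1274 in place of 669 (VIM against MYC), with 1 of 9 genes called in the latter. With only the groups compared in the fit, these fell to 0 and 1, and VIM against VM tumours from 477 to 40. A pseudocount of 10 lowered the calls from 2942 to 1936 (MYC-2983), 918 to 458 (difference between lines in the Dox change), 2691 to 1653 and 3141 to 1981 (between lines with and without Dox), and a mean filter of 10 units gave 541 for the difference in the Dox change. Between lines with Dox, either setting left 1 of 9 genes called in place of 2, Scara5 not being tested under the filter, and a pseudocount of 0.1 left 0 called for the difference in the Dox change.

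Leaving out single libraries or animals moved Ireb2 between -0.0125 and 0.0859 (difference in the Dox change) and between -0.0356 and 0.0081 (lines with Dox), Tfrc in MYC tumours against kidney between -1.22 and 0.12 and in VIM against VM tumours between -0.25 and 0.51, and Slc40a1 between -0.27 and 0.47 in MYC and between -0.15 and 0.17 in VIM tumours. The genes called in VIM tumours were 1 to 3 of 9, with 1 left without VIM tumour 2. Calls over all genes ranged from 208 to 710 (VIM against VM tumours), 122 to 527 (VM against MYC) and 105 to 2149 (VIM against MYC, 0 to 1 of 9 genes), the extremes being without VIM tumours 1 and 3, MYC tumour 1 and VM tumour 1, and VIM tumours 1 and 2.

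The replicate numbers did not pair the libraries (mean correlation of deviations -0.0735 to 0.0315), and the replicate block changed no call (for Tfrc between lines without Dox, the adjusted p alone came to 0.0297, limma, under the block): 3572 genes against 3554 in VM-3055 cells, 3397 against 3396 in VIM-3039 and 869 against 918 for the difference between them, with 3, 1 and 1 of 9 genes as before. Voom on derived reads gave 3675, 3503 and 792. Depth limits Scara5 in VIM-3039 cells, where every library was at or under 3 reads.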
